A study of Mus musculus with 22 samples.

Results

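The 5 dopamine receptor genes Drd1, Drd2, Drd3, Drd4 and Drd5 were followed in neurons and glia of the mouse contralateral hippocampus (CLH) 24 h after kainate. They were taken by symbol from a count table of 53379 genes, and all 5 were found and passed the filter on low counts. Adult male C57/BL6N mice, 8 weeks old at arrival and acclimatized for 4 weeks, received kainate above the right hippocampus or, as sham controls, saline at the same place. Only kainate mice with convulsive seizures were kept by the study. The left (contralateral) hippocampi of 8 mice per treatment were pooled into 3 samples of 4, 2 and 2 mice, and nuclei were sorted into NeuN+ nuclei, called neurons here, and NeuN– nuclei, called glia. Neurons gave 3 kainate and 3 sham libraries, and glia 3 kainate libraries and 2 sham libraries, the latter with the replicate numbers 1 and 3. NeuN– nuclei are all nuclei sorted as lacking NeuN. According to the study they may, beside glia, hold a minor part of endothelial cells, pericytes and neurons.

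Dopamine receptors are G protein-coupled receptors on the cell surface that answer to dopamine released by midbrain axons. The D1-like receptors, encoded by Drd1 and Drd5, couple to stimulatory G proteins and raise cyclic AMP. The D2-like receptors, encoded by Drd2, Drd3 and Drd4, couple to inhibitory G proteins and lower it. In the hippocampus, dopamine is known for its effects on synaptic plasticity and on the excitability of granule and pyramidal cells.

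Total counts ranged from 12058875 to 45428465 per library. The sort was checked on marker genes. Summed normalized counts of 5 neuron markers (CPM, counts relative to the scaled library size) were 2104 to 4291 in the NeuN+ libraries and 432 to 784 CPM in the NeuN– libraries, and 5 oligodendrocyte markers summed to 185 to 439 CPM and 4631 to 36814 CPM. Each marker gene was detected in at least 1 library of every group. The replicate 1 libraries had 7.57 to 15.9% of the tested genes at 0 counts, against 0.0663 to 2.35% in the others. Input was 1 ng of RNA and 10 PCR cycles except in 2 glia libraries (kainate replicate 2, sham replicate 1), which had 0.05 ng and 15 cycles.

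On GRCm38, with the GENCODE M21 annotation, Drd1 (ENSMUSG00000021478) lies on the minus strand at chr13:54051183-54055705 with 3 exons after merging of transcripts. Drd2 (ENSMUSG00000032259) lies on the plus strand at chr9:49340627-49408177 with 8 exons, and Drd3 (ENSMUSG00000022705) on the plus strand at chr16:43754026-43822932 with 8 exons. Drd4 (ENSMUSG00000025496) lies on the plus strand at chr7:141292006-141296464 with 4 exons, and Drd5 (ENSMUSG00000039358) on the plus strand at chr5:38319367-38322518 in 1 exon. Of the 3152 exon bases of Drd5, 1531 were shared with the antisense gene Gm26560. The strand setting of the counting and the handling of reads that lie on both genes were not stated. Reads from the shared bases may thus be missing from the Drd5 counts or mixed with those of Gm26560.

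The sequences just before Drd1 and Drd4 are shown because these genes differed most between kainate and sham neurons. They are RefSeq sequences of GRCm38.p6, written 5′ to 3′ on the strand of the gene and ending at the base before the annotated gene, with each CpG, the dinucleotide that can carry DNA methylation, in capitals. Drd1 is shown for chr13:54055706-54055908 on the minus strand (203 bases, 11 CpG) and Drd4 for chr7:141291768-141292005 on the plus strand (238 bases, 10 CpG).
Drd1: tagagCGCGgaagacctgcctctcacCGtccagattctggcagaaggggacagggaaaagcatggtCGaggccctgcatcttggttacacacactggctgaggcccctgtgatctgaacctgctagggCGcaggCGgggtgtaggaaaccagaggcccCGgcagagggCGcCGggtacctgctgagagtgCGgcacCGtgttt
Drd4: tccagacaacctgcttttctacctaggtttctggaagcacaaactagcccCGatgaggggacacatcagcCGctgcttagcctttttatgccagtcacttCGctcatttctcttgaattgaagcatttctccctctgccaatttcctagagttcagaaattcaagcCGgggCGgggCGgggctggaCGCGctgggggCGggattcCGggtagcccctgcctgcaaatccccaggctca
The 250 bases before each RefSeq start of the 5 genes, 6 windows in all with 2 for Drd1, were searched on both strands for 4 motifs known from genes induced by neuronal activity. These were the full CRE site TGACGTCA, the shorter CRE site TGACG, which the full site contains, the AP-1 site TGANTCA and the Egr site GCGNGGGCG. None of the 6 windows held any of them, and the share of all 32851 windows holding each was 1.55%, 17.8%, 6.75% and 4.7%. This states only that these letters are not in these windows.

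Drd1 encodes the main D1-like receptor. Its level in kainate neurons was 80.7, 72.9 and 65.3 CPM in replicates 1, 2 and 3, and in sham neurons 28.0, 24.0 and 15.7 CPM. The groups did not overlap, and the lowest kainate library was well above the highest sham library. Group means were 73.0 ± 7.72 and 22.6 ± 6.26 CPM (SD, n = 3 each), and the kainate to sham ratio was 2.88, 3.04 and 4.15 in the replicate numbers 1, 2 and 3. In glia, Drd1 was lower and varied more, with 8.78, 16.6 and 20.1 CPM in the kainate replicates 1, 2 and 3 and 2.04 and 12.2 CPM in the sham replicates 1 and 3. The order of the means was kainate neurons, sham neurons, kainate glia (15.2 ± 5.80 CPM) and sham glia (7.15 ± 7.21 CPM, n = 2), and of these neighbours only the neuron groups were separate.

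Drd4 encodes a D2-like receptor. In kainate neurons it stood at 4.77, 7.85 and 10.9 CPM in replicates 1, 2 and 3, from 67, 308 and 243 counts. In sham neurons it stood at 0.739, 0.861 and 0.580 CPM, from 11, 30 and 18 counts. Every kainate library was above every sham library, and the means were 7.85 ± 3.09 and 0.727 ± 0.141 CPM (SD, n = 3 each). The ratio within a replicate number was 6.45, 9.11 and 18.9. In glia, Drd4 reached 0.627, 2.44 and 2.33 CPM after kainate and 0.0639 and 1.04 CPM in sham, the lowest of these from 1 count. The glia groups overlapped, and the order of the means was kainate neurons, kainate glia (1.80 ± 1.02 CPM), sham neurons and sham glia (0.553 ± 0.691 CPM, n = 2), where only the first group was separate from its neighbour.

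Drd5 encodes the other D1-like receptor. It was at 25.04, 19.4 and 15.5 CPM in kainate neurons and 20.8, 8.90 and 11.8 CPM in sham neurons. These ranges overlapped, although the kainate library was the higher one in each replicate number, by ratios of 1.20, 2.18 and 1.32. Glia held less Drd5, with 2.26, 3.53 and 5.14 CPM after kainate and 1.47 and 2.88 CPM in sham. The means, in order, were 20.0 ± 4.80 CPM in kainate neurons, 13.8 ± 6.22 CPM in sham neurons, 3.64 ± 1.45 CPM in kainate glia and 2.17 ± 0.994 CPM in sham glia, and the only neighbours apart were sham neurons and kainate glia. The overlapping antisense gene Gm26560 was at 1.81 ± 0.443 CPM in kainate and 1.87 ± 0.323 CPM in sham neurons.

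Drd2, the main D2-like receptor, was low and even. Its level was 2.49, 2.14 and 2.57 CPM in kainate neurons and 2.62, 2.56 and 2.10 CPM in sham neurons, with means of 2.40 ± 0.227 and 2.42 ± 0.286 CPM. In glia it ranged from 0.564 to 3.77 CPM after kainate and from 0.703 to 3.07 CPM in sham. No pair of groups was separate. Drd3, a D2-like receptor, had the fewest counts, 1 to 33 per library. Its means were 0.443 ± 0.421 CPM in kainate neurons, 0.380 ± 0.156 CPM in sham neurons, 0.708 ± 0.342 CPM in kainate glia and 1.01 ± 0.886 CPM in sham glia, all overlapping, so that differences of Drd3 were limited by its depth.

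**Figure D1:**
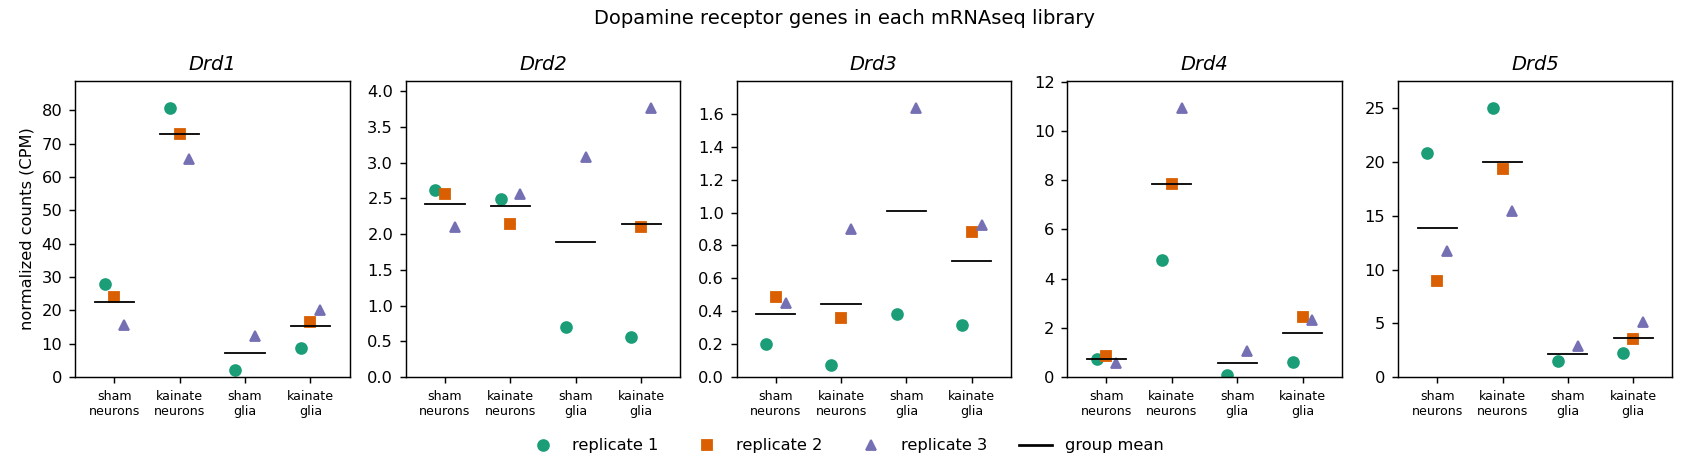
Normalized counts (CPM, linear axis from 0) of each dopamine receptor gene in the 11 libraries, by group. Symbols mark the replicate number and bars the group mean. Kainate neurons are separate from sham neurons for Drd1 (65.3 to 80.7 against 15.7 to 28.0 CPM) and Drd4 (4.77 to 10.9 against 0.580 to 0.861 CPM), and the groups overlap for Drd2, Drd3 and Drd5.

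The first comparison asked which genes differed between kainate and sham in neurons of the CLH, with one edgeR quasi-likelihood fit of group means over the 11 libraries and a false discovery rate (FDR) below 0.25 as the threshold. Over all 40714 genes tested, 0.165% passed it, 0.157% higher after kainate. No receptor passed, while 2 of the 5 (Drd1 and Drd4) had an unadjusted p below 0.05, which 2.09% of all genes had, and the same 2 had kainate libraries all above the sham libraries, as did 4.26% of all genes. Drd4 was 10.7-fold higher (log2 fold change 3.43, SE 0.78, 95% interval 1.74 to 5.11), with FDR = 0.292, and ranked 91 by p among all genes. Drd1 was 3.23-fold higher (log2 fold change 1.69, SE 0.53, 95% interval 0.56 to 2.82), with FDR = 0.970. The log2 fold change of Drd5 was 0.53 (95% interval −0.41 to 1.48), of Drd2 −0.01 (−1.47 to 1.44) and of Drd3 0.21 (−1.81 to 2.23), each with FDR = 1. The median log2 fold change was 0.53 over the 5 receptors and −0.01 over all genes.

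Deviations from group means were alike in same-numbered kainate and sham neuron libraries of replicates 1 and 3 (correlation 0.774 and 0.635). In replicate 2 they were less so (0.140). The fit was thus also made with a block for each replicate number of a cell type, although the labels do not say what equal numbers share. Drd4 was then 10.6-fold higher (log2 fold change 3.40, SE 0.42, FDR = 4.80e-08) and Drd1 3.31-fold higher (log2 fold change 1.73, SE 0.22, FDR = 9.63e-08). These 2 receptors passed the threshold beside 5.09% of all genes, and 3.19% of all genes passed as higher after kainate. The fold changes of both genes hardly moved from the fit without the block, and their standard errors were smaller. Drd5 had a log2 fold change of 0.60 (SE 0.26, FDR = 0.379) and did not pass, nor did Drd2 or Drd3. The blocked fit left 3 residual degrees of freedom, so its spread was mainly shared over genes. The study itself took neurons and glia in separate fits. A fit of the neuron libraries alone, without a block, is close to that design. It called both genes (FDR = 0.0195 for Drd4 and 0.0220 for Drd1), beside 1.29% of the 30259 genes tested there. The study, at the same FDR threshold, listed neither gene among its neuron genes of the CLH. It gave Drd1 as changed in neurons only of the ipsilateral hippocampus. The reason for this difference was not tested. The DESeq2 Wald test on all 11 libraries also called both (FDR = 0.000495 for Drd4 and 0.143 for Drd1), beside 0.884% of all genes.

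Markers of other cell types were read in the same neuron libraries. In the edgeR fit of group means none of the 61 marker genes passed the FDR threshold, whereas 20 passed with the replicate block (11 higher and 9 lower, beside 5.09% of all genes) and 7 in the DESeq2 Wald test (beside 0.884%). The 9 striatal projection neuron markers, which count Drd1 and Drd2, summed to 398 to 532 CPM in kainate and 200.3 to 332 CPM in sham neurons, with none at 0. Of these, 3 (Drd1, Penk and Rgs9) had an unadjusted p below 0.05 without the block and passed with it, and the median log2 fold change of the 9 was 0.44. Penk, which encodes the opioid peptide precursor proenkephalin and is also made outside the striatum, was at 166 ± 39.4 CPM in kainate and 44.6 ± 34.3 CPM in sham neurons, and Rgs9, which encodes a G protein regulator, at 79.95 ± 10.8 and 43.4 ± 2.30 CPM.

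The 5 granule cell markers were lower in sum after kainate in each replicate number, with 399.9, 348 and 236 CPM in kainate and 654, 401 and 397 CPM in sham neurons, and 4 of them passed as lower with the block. The 6 interneuron markers were higher in each number, with 835, 521 and 391 CPM against 703, 258 and 205 CPM, and 3 (Gad1, Gad2 and Npy) passed as higher with the block. The 5 astrocyte markers were also higher in sum in each number (68.7, 119 and 218 CPM against 66.6, 66.1 and 124 CPM), but with the block 3 passed as higher and 2 as lower. The 5 microglia markers did not overlap, at 26.7 to 43.9 CPM in kainate and 23.0 to 25.9 CPM in sham neurons, with 1 higher and 1 lower past the threshold with the block. Choroid plexus markers were higher in each number (65.7, 81.0 and 39.2 CPM against 43.8, 43.3 and 35.1 CPM), and Kl passed as higher with the block. Mossy cell markers were too (221, 115 and 105 CPM against 181, 78.4 and 93.6 CPM), though none passed with the block. The part of any of these in the receptor values was not tested, and in such pooled nuclei fewer cells of a type and less RNA per cell cannot be told apart.

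In glia, the same comparison asked for kainate effects in the NeuN– fraction. Neuron markers summed to 432 to 784 CPM in these libraries, and the part of neuronal RNA in their receptor values was not tested. No receptor passed or had an unadjusted p below 0.05 in the edgeR fit of group means, beside 0.101% of all genes past the threshold, and none passed in the DESeq2 Wald test, beside 0.624% of all genes there, or in a fit of the glia libraries alone, where no gene did. All 5 overlapped between kainate and sham, where 8.22% of all genes did not. Drd4 had a log2 fold change of 1.67 (SE 0.88, 95% interval −0.21 to 3.56) and Drd1 of 1.08 (SE 0.60, 95% interval −0.20 to 2.37), followed by Drd5 with 0.75, Drd2 with 0.19 and Drd3 with −0.50, all with FDR = 1.00. With the replicate block, Drd1 (log2 fold change 1.29, SE 0.29, FDR = 0.00433) and Drd4 (1.58, SE 0.60, FDR = 0.207) passed beside 5.79% of all genes. In the blocked fit, kainate glia replicate 2 had no sham library of its number and added nothing to this comparison. The kainate to sham ratio in replicate numbers 1 and 3 was 4.29 and 1.64 for Drd1, and 9.81 and 2.24 for Drd4. All these glia values rested on 2 sham libraries that were far apart, of which replicate 1 had the low RNA input of 0.05 ng. Without sham glia replicate 1, the log2 fold changes of Drd1 and Drd4 fell to 0.33 and 0.83, and without kainate glia replicate 3 to 0.55 and 1.18, none past the threshold. Without sham glia replicate 3, the log2 fold changes of Drd1 and Drd4 became 2.88 and 4.72 and both passed in the fit without the block, where a single sham glia library was left and was assumed to vary like the other groups. The 4 choroid plexus markers summed to 28.5 to 97.5 CPM in kainate and 20.9 to 23.8 CPM in sham glia, without overlap, and the 6 interneuron markers to 119 to 174 and 55.7 to 147 CPM. With the block, 9 of all 61 marker genes passed as higher and 10 as lower in kainate glia, beside 5.79% of all genes. The 9 higher ones were Ttr and Kl of the choroid plexus list, Gad1 and Npy of the interneuron list, Drd1 and Penk of the striatal list, the astrocyte marker Gfap, and Pou3f1 and Tubb3 of the pyramidal cell and neuron lists. The 10 lower ones were 3 of 5 oligodendrocyte markers, 3 of 3 precursor markers, the microglia markers P2ry12 and Tmem119 and the astrocyte markers Gja1 and Slc1a3. Their part in the glia values was not tested.

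The difference of the kainate effect between neurons and glia was tested as an interaction. It was 1.75 for Drd4 (SE 1.11, 95% interval −0.64 to 4.14) and 0.61 for Drd1 (SE 0.77, 95% interval −1.05 to 2.27) on the log2 scale, and no receptor passed (FDR = 1.00 for each) or had an unadjusted p below 0.05, beside 0.00246% of all genes past the threshold. The DESeq2 Wald test also called none. With the replicate block, the difference for Drd4 was 1.82 (SE 0.75) with FDR = 0.525. A larger effect in neurons than in glia was thus not shown for any receptor. Without sham glia replicate 3 the difference turned to −1.29 for Drd4 and −1.18 for Drd1.

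**Figure D2:**
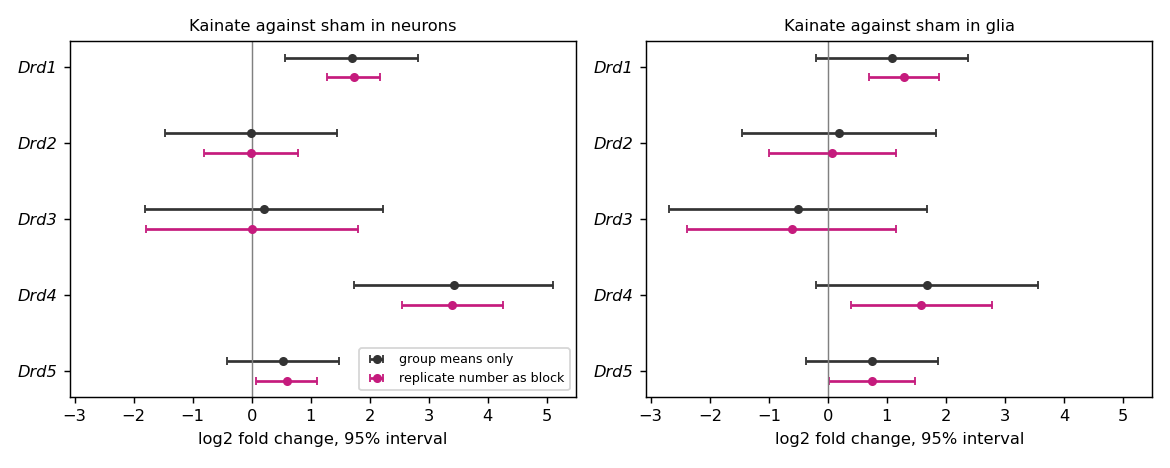
Log2 fold change of kainate against sham for each receptor, in neurons (left) and glia (right), with 95% intervals from edgeR. Dark points come from the fit of group means and pink points from the fit with the replicate number as a block. In neurons the intervals of Drd1 and Drd4 lie above 0 in both fits (Drd4 1.74 to 5.11 and 2.55 to 4.25), and in glia those of the unblocked fit include 0 for all 5 genes.

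Neurons were then compared with glia over both treatments, to place each receptor in its cell fraction. Drd5, Drd1 and Drd4 were higher in neurons and passed the threshold, 3 of 5, beside 16.8% of all genes higher and 20.4% lower in neurons. Drd5 was 5.86-fold higher (log2 fold change 2.55, SE 0.37, FDR = 0.000192), and all its neuron libraries were above all glia libraries, as were those of 8.92% of all genes. Drd1 was 3.89-fold higher (log2 fold change 1.96, SE 0.41, FDR = 0.00352) and Drd4 2.35-fold higher (1.23, SE 0.57, FDR = 0.170), with overlap in both. Drd2 had a log2 fold change of 0.25 (FDR = 0.750) and Drd3 of −1.02 (FDR = 0.339). The median over all genes was −0.47 in this comparison, so that each receptor but Drd3 stood above that median.

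Each pool was sorted into both fractions, but the labels do not say that the replicate numbers of the fractions match, so NeuN+ and NeuN– libraries of the same treatment and number were set side by side by number only. Within these 5 pairs, the neuron to glia ratio of Drd5 was 3.01 to 14.2 and of Drd1 1.28 to 13.7, above 1 in 5 of 5 pairs for each. The ratio of Drd4 was above 1 in 4 of 5 pairs, with 0.557 in sham replicate 3, that of Drd2 in 3 of 5, and that of Drd3 in 0 of 5 (0.227 to 0.971). Oligodendrocyte markers summed to 4631 CPM in kainate and 8319 CPM in sham glia replicate 3. In replicate 1 they summed to 25861.5 and 36814 CPM. The part of this difference between glia libraries in the ratios was not tested. With treatment and number together as a block, Drd3 also passed, as lower in neurons (log2 fold change −1.20, FDR = 0.119), beside 59.7% of all genes. With the replicate block within each cell type, all 5 receptors passed beside 57.4% of all genes, Drd2 as higher in neurons (0.55, FDR = 0.195). The call of Drd4 was lost without kainate neuron replicate 2 (FDR = 0.268) or 3 (0.279), kainate glia replicate 3 (0.321) or sham neuron replicate 2 (0.261), and also with low RNA input, which applied to 2 glia libraries, as a covariate (log2 fold change 1.06, FDR = 0.301). Without sham glia replicate 3, the log2 fold change of Drd1 was 2.87 and that of Drd4 was 2.76.

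Levels of different receptors were compared per length, as CPM per kb of exon. For Drd5 this length includes the bases shared with Gm26560, so its level per length and its place beside Drd1 are uncertain. In sham neurons the order was Drd1 (6.23 ± 1.73 CPM per kb), Drd5 (4.39 ± 1.97), Drd2 (0.951 ± 0.112), Drd3 (0.222 ± 0.0911) and Drd4 (0.215 ± 0.0417), with overlap between Drd1 and Drd5 and between Drd3 and Drd4. In kainate neurons the order was Drd1 (20.1 ± 2.13 CPM per kb), Drd5 (6.34 ± 1.52), Drd4 (2.32 ± 0.914), Drd2 (0.942 ± 0.0892) and Drd3 (0.259 ± 0.246). Drd4 thus stood last in sham neurons, but above Drd2 in kainate neurons, where its lowest library (1.41 CPM per kb) was above the highest of Drd2 (1.01 CPM per kb). In glia, Drd1 was again highest, at 4.18 ± 1.60 CPM per kb after kainate and 1.97 ± 1.99 CPM per kb in sham.

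The summed level of the 5 receptors was 27.7 to 32.6 CPM per kb in kainate neurons and 9.33 to 15.7 CPM per kb in sham neurons, and 7.12 ± 3.13 and 4.15 ± 3.68 CPM per kb in kainate and sham glia. Drd1 made up 67.0 ± 1.76% of this sum in kainate and 52.0 ± 7.30% in sham neurons, with no overlap. The share of Drd4 was 7.95 ± 3.69% and 1.85 ± 0.463%, also without overlap. The shares of Drd5 (20.96 ± 3.30% and 35.9 ± 8.93%) and Drd2 (3.16 ± 0.425% and 8.17 ± 1.41%) were lower after kainate and did not overlap. The level of Drd2 itself was even, and that of Drd5 was higher after kainate in each replicate number, with overlap of the groups. Shares in one library sum to the whole, so they are not independent of each other. The uncertain length of Drd5 enters all of them.

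**Figure D3:**
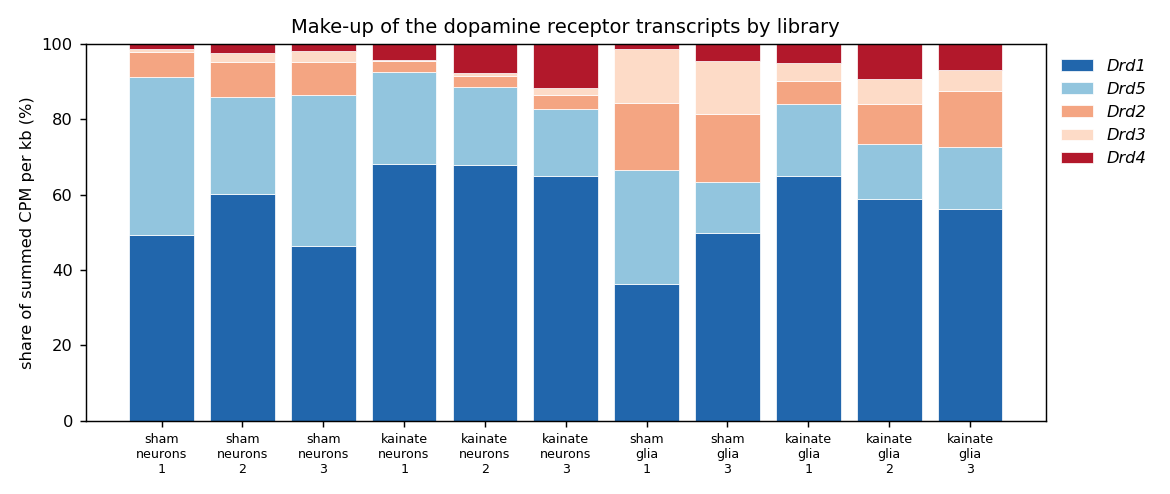
Share of each receptor gene in the summed CPM per kb of the 5 genes (percent, stacked), for each library by group and replicate number. Drd1 holds 65.0 to 68.2% in kainate neurons and 46.5 to 60.3% in sham neurons, and the dark red Drd4 part is largest in kainate neurons 3 (11.7%).

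The genes around the receptors were described from 65 genes in 8 lists, from dopamine synthesis to the channels downstream of D2-like receptors. In neurons, 1 of the 65 (1.54%) passed after kainate, beside 0.165% of all genes. This was Rgs4, which encodes a regulator that speeds the shut-off of inhibitory G proteins. Rgs4 was at 467, 513 and 387 CPM in kainate and 116, 53.7 and 36.8 CPM in sham neurons, with all kainate libraries far above the sham libraries. It was upregulated 6.63-fold (log2 fold change 2.73, SE 0.48, FDR = 0.108). Its call was lost without kainate neuron replicate 2 or sham neuron replicate 2 or 3, with log2 fold changes between 2.43 and 3.33 over the libraries left out, the highest without sham neuron replicate 1. The median log2 fold change of the 65 genes was 0.05.

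With the replicate block, 15 of the 65 pathway genes passed in neurons, beside 5.09% of all genes. The 9 higher ones were Rgs2, Rgs4, Rgs7, Rgs8, Rgs9, Arrb1, Ncs1, Ppp1r9b and Th, of which the Rgs genes encode G protein regulators and Arrb1 an arrestin that uncouples receptors. The 6 lower ones were Adcy1 and Adcy9, which encode adenylyl cyclases, Pde1b and Pde7b, which encode phosphodiesterases, Kcnj9, a potassium channel subunit, and Caly. Th, which encodes the rate-limiting enzyme of dopamine synthesis, was at 3.51 ± 0.372 CPM in kainate and 1.48 ± 0.643 CPM in sham neurons. Its log2 fold change was 1.23 (SE 0.79, FDR = 1) without the block and 1.28 (SE 0.40, FDR = 0.0749) with it. The dopamine transporter gene Slc6a3 was at 2.82 ± 1.24 and 3.55 ± 1.93 CPM, and Ppp1r1b, which encodes the protein phosphatase inhibitor DARPP-32, at 13.6 ± 3.28 and 12.3 ± 4.95 CPM. Both overlapped between the groups, with FDR = 1.

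In glia, 0 of the 65 genes passed in the edgeR fit of group means (0.101% of all genes), and 4 had an unadjusted p below 0.05 (2.05%). The DESeq2 Wald test called 1, Rgs4 (FDR = 0.0844), beside 0.624% of all genes. With the block, 2 were higher (Rgs4 and Rgs7) and 5 lower, beside 5.79% of all genes. For the difference between fractions 0 passed in the edgeR fit of group means (0.00246% of all genes) or the DESeq2 Wald test (0.0761%). An unadjusted p below 0.05 was seen for 2 (0.909% of all genes), and 5 passed with the block, beside 1.94% of all genes. Rgs4 was among them, with a difference of 1.23 (SE 0.36, FDR = 0.0992).

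Between neurons and glia, 42 of the 65 pathway genes (64.6%) passed, 31 higher and 11 lower in neurons, beside 37.2% of all genes. The 3 highest in neurons encode subunits of G protein-gated potassium channels: Kcnj9 had a log2 fold change of 3.15 (SE 0.34), Kcnj6 of 2.85 and Kcnj3 of 2.84. The lowest was Ddc, which encodes aromatic amino acid decarboxylase, with −3.56 (SE 0.41, FDR = 4.42e-05), and −2.82 without sham glia replicate 1. It was followed by Pde4b with −2.66 and Kcnj5 with −2.16.

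Adrenoceptors, a related family of 9 genes, answer to noradrenaline, and the axons that bring noradrenaline to the hippocampus are known to release dopamine there too. After kainate, 0 of the 9 passed in the edgeR fit of group means in either fraction, beside 0.165% of all genes in neurons and 0.101% in glia. An unadjusted p below 0.05 was seen for 2 in neurons and 2 in glia, beside 2.09% and 2.05% of all genes. The DESeq2 Wald test called 1 in neurons and 0 in glia, beside 0.884% and 0.624%. The smallest FDR in neurons was that of Adra1a (log2 fold change 1.58, SE 0.36, FDR = 0.282, and FDR = 5.29e-07 with the replicate block), at 63.1 ± 22.3 CPM in kainate and 21.1 ± 3.51 CPM in sham neurons. Against glia, 4 were higher in neurons, led by Adra1d (3.42, SE 0.52).

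**Figure D4:**
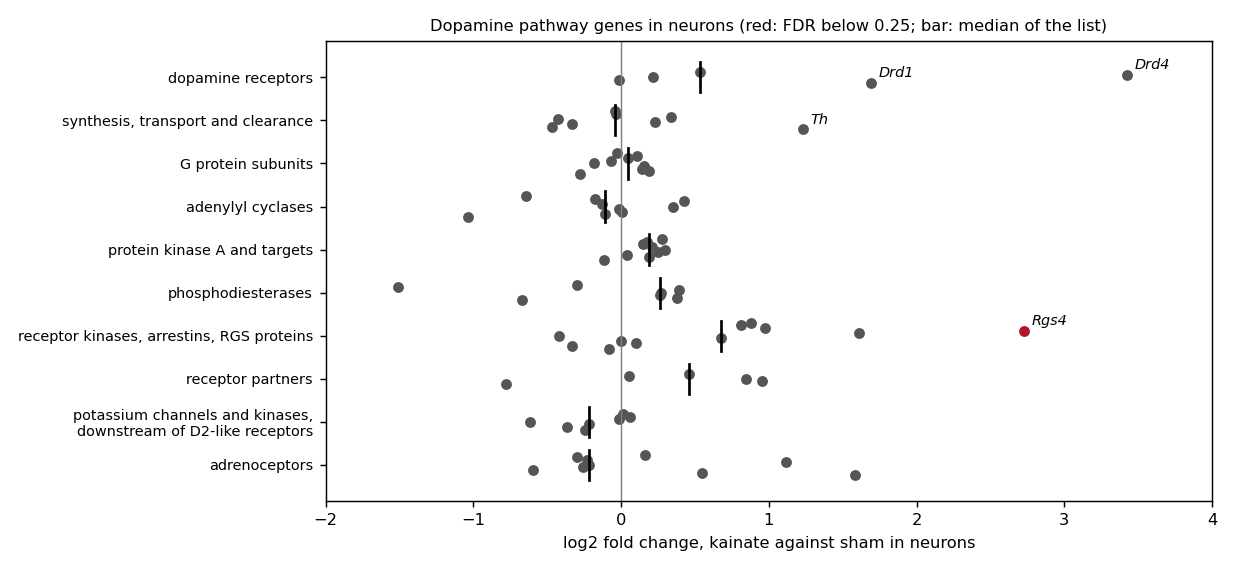
Log2 fold change of kainate against sham in neurons for each gene of the receptor, pathway and adrenoceptor lists, from the edgeR fit of group means. Each point is a gene, bars mark list medians and red marks FDR below 0.25. Only Rgs4 (2.73) is red, and Drd4 (3.43) has the largest value of the genes plotted.

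Genes with a similar profile were sought by the root mean square difference of log2(CPM + 1) over the 11 libraries, each profile centred on its mean, among 17188 genes. Nearest to Drd1 were Hcrtr1 (0.313), which encodes an orexin receptor, Wnt10a (0.313) and Slc37a1 (0.335). Nearest to Drd4 were Pappa (0.291), which encodes a protease of insulin-like growth factor binding proteins, the miRNA gene Mir132 (0.389) and Adra1a (0.413). Pappa was at 30.9 ± 7.83 CPM in kainate and 5.85 ± 0.181 CPM in sham neurons, and Mir132 at 11.7 ± 3.16 and 2.12 ± 0.725 CPM. Nearest to Drd5 were Egfl7 (0.206), Tmem63c (0.226) and Cntnap4 (0.239), and nearest to Drd2 were Foxr2 (0.157), Lipm (0.171) and Plekha4 (0.188). Drd3 averaged below 1 CPM and was left out. Between the receptors, Drd1 was nearer to Drd5 (0.637) and Drd4 (0.724) than to Drd2 (1.12). The profiles share libraries and depth, and in both glia groups replicate 1 had the lowest value of all 5 receptors.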

How the data were processed

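Nuclear RNA from 11 sorted samples was measured by mRNAseq (SMART-Seq v4 and ThruPlex libraries). The authors trimmed reads with Trim Galore 0.4.3, aligned them to mm10 with Rsubread and deposited raw counts of uniquely mapped reads per gene (featureCounts, GENCODE M16). Labels gave the groups. The deposited extraction text names right hippocampi, whereas the titles and the study's methods give left. Samples of bisulfite sequencing were not used here.

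Counts were fitted with edgeR 4.0.16 in R 4.3.3 (TMM factors, filterByExpr with a minimum count of 10 and total of 15, quasi-likelihood F-test), Benjamini-Hochberg adjustment over 40714 genes and FDR below 0.25, with 1 model of 4 group means. The authors fitted each cell type separately, which was run here as an alternative. The common biological coefficient of variation was 0.600. Rows without a symbol (105) stayed out. CPM used TMM-scaled library sizes, and lengths came from merged GENCODE M21 exons. The scripts were tested on simulated counts. Alternatives included DESeq2 1.42.0, other filters and leaving out each library. Replicates were pools of separate mice.

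Pairing was checked by correlating deviations from group means over genes. Replicate numbers come from the labels, which do not say what they share. The study used different sequencing platforms, and the labels do not say which libraries ran on which. Kainate and sham libraries correlated at 0.774, 0.140 and 0.635 in neurons and 0.849 and 0.860 in glia, and the fractions of one treatment and number at 0.365 to 0.702. Deviations within a group cancel out, so the values of a fraction are not independent of each other. Those of the sham glia libraries are exact opposites, so both glia values are largely the same check.

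The receptors and lists were chosen with earlier results of these data known. Named genes were the 5 receptors, Th, Slc6a3, Ppp1r1b, pathway genes and adrenoceptors past the threshold for kainate (at most 6 per comparison), the 4 with the largest change in each direction between fractions, and the 3 nearest profiles per receptor above 1 CPM. Genes called only with the replicate block, Adra1a among the adrenoceptors, and Gm26560 were named after their values were seen. Some genes that these rules name are not reported here.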

Additional observations from a re-analysis of the deposited data

How the results depend on the processing

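Log2 fold changes of Drd1 and Drd4 in neurons kept their direction in 23 of 23 alternatives, at 1.49 to 1.88 and 3.11 to 3.68. Their calls did not: the edgeR fit of group means called 0 receptors in neurons, and 2 were called by the DESeq2 Wald test, in a separate fit per cell type and with the replicate block, and 1 (Drd4) without a filter on low counts, by the newer quasi-likelihood method and without both low-input libraries. With 1 library left out, 0 to 2 were called, Drd4 without kainate glia replicate 1 and both Drd1 and Drd4 without either sham glia library. In glia 0 became 2 with the replicate block and 0 to 2 with 1 library left out. Between neurons and glia 3 became 5 with the replicate block, beside 57.4% of all genes. They fell to 2 with some libraries left out, such as kainate neuron replicate 2, beside 27.5% of all genes. The newer method also called Drd3, as lower in neurons (FDR = 0.165), beside 54.4% of all genes. Drd4 was lost at FDR below 0.05 and with low RNA input as a covariate. The replicate block changed no other receptor call. Pathway genes called in neurons (1) became 2 with DESeq2 size factors, a filter of 1 CPM in 3 libraries or the newer method, 4 by the DESeq2 Wald test, 5 in the separate fit, 15 with the replicate block, 0 at FDR below 0.05 and 0 to 2 with 1 library left out. In glia they became 1 by the DESeq2 Wald test and 7 with the replicate block, and stayed at 0 with any 1 kainate glia library left out. For the difference they became 5 with the block. Between fractions they fell to 35 without kainate neuron replicate 2, beside 27.5% of all genes. All genes called in neurons (0.165%) became 0.884% by the DESeq2 Wald test, 0.468% with the 1 CPM filter, 0.334% by the newer method, 1.29% in the separate fit, 0.101% with low RNA input as a covariate, 0.0196% at FDR below 0.05, 5.09% with the block and 0.0123 to 0.413% with 1 library left out. In glia 0.101% became 0.624% by the DESeq2 Wald test, 5.79% with the block, 0% in the separate fit and 0.00225 to 6.59% with 1 library left out, the last without sham glia replicate 3. The cause was not tested.

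Signs turned only for small, uncalled values and for those that rest on 1 library. Between fractions, Drd2 became −0.0230 with low RNA input as a covariate and −0.076 without both low-input libraries. The latter setting also turned Drd2 to −0.47 in glia, and the difference to 0.46 for Drd2 and 0.14 for Drd5. With 1 library left out, Drd2 ranged from −0.11 to 0.063 and Drd3 from −0.74 to 0.68 in neurons, and Ppp1r1b from −0.088 to 0.50. In glia Drd1 ranged from 0.33 to 2.88, Drd4 from 0.83 to 4.72, Drd2 from −0.74 to 1.60 and Drd3 from −1.16 to 0.88. The difference ranged from −1.18 to 1.36 for Drd1, −1.62 to 0.71 for Drd2, −0.67 to 1.37 for Drd3, −1.29 to 2.60 for Drd4 and −0.77 to 0.31 for Drd5, and Drd2 between fractions from −0.071 to 0.97. Glia values were limited by 2 sham libraries, and Drd3 by 1 to 33 counts per library.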
